A study of Mus musculus with 7 samples.

Results

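Transcript levels of 10 genes of insulin, insulin-like growth factor (IGF) and FOXO signalling were followed in mouse dorsal root ganglia after nerve injury at 2 times of day. The genes were taken by symbol: the ligand gene Igf1, the receptor genes Insr, Igf1r and Igf2r, the receptor substrate genes Irs1 and Irs2, the transcription factor genes Foxo1 and Foxo3, and the binding protein genes Igfbp3 and Igfbp5. All 10 were found, each in 1 row, among the 54309 genes of the deposited table. The table gives TPM, a transcript level already divided by transcript length and scaled to the same sum in every sample. The animals were male C57bl/6 mice aged 6 to 8 weeks, per the labels. In 1 group (4 samples, named ZT20) the sciatic nerve was injured at Zeitgeber time 20, counted in hours from lights on, and in the other (3 samples, named ZT8) at Zeitgeber time 8. In both, ganglia of lumbar levels L4-6 were taken 72 hours later and enriched for neurons on an albumin gradient, so every sample came from an injured animal. Injury and dissection fell at the same clock time within a group and their parts cannot be told apart. The labels do not say whether a sample is 1 animal or a pool, so p-values measure only the spread between these samples.

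Insulin and the IGFs bind receptor tyrosine kinases, which phosphorylate the IRS adaptors and switch on PI3 kinase and AKT. AKT phosphorylates FOXO factors, which then leave the nucleus, and it feeds the growth kinase mTOR. In sensory neurons the pathway is known to support survival and neurite outgrowth, and feeding-related insulin and IGF signals are known to reset peripheral clocks.

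The number of genes above 0 TPM was 24192 to 25238 at ZT20 and 18297 to 22973 at ZT8, the lowest being ZT8 replicate 2. Sequencing depth is unknown from TPM. The summed level of 14 neuron markers was 20287 to 24651 TPM at ZT20 and 15644 to 22623 TPM at ZT8, so markers of the enriched cell type were abundant in every sample, and 4 of the 14 (Nefh, Elavl4, Scn9a and Scn10a) were higher at ZT20 in the gene-wise test. The summed level of 8 satellite glia markers (glia that wrap the cell bodies) was 7511 to 9188 TPM at ZT20 and 12794 to 15491 TPM at ZT8, without overlap, and 3 of the 8 were lower at ZT20 in that test. The 8 Schwann cell markers summed to 1138 to 1286 TPM at ZT20 and 914 to 1330 TPM at ZT8, and the 10 macrophage markers to 150 to 218 TPM and 206 to 478 TPM. The macrophage markers did not move as one. Of them C1qa was called lower at ZT20 (−1.17, limma adjusted p = 0.0253). Mrc1, at 0.0805 to 0.732 TPM at ZT8, was called higher (1.4, limma adjusted p = 0.0259). The 8 B and plasma cell markers summed to 270 to 492 TPM at ZT20 and 503 to 945 TPM at ZT8, without overlap, with 1 of them (Mzb1) called lower. In that list Jchain, at 4.18 to 176 TPM at ZT20 and 195 to 560 TPM at ZT8, and Mzb1 separated the groups, while the ranges of the other 6 overlapped. Apart from a fit with a neuron and glia covariate, the part of these markers in the results was not tested. No marker of these lists was at 0 in all samples. In bulk samples, fewer cells of a type and less RNA per cell cannot be told apart. The male label did not hold for some libraries by their transcripts: Ddx3y, Eif2s3y and Uty, all on the Y chromosome, were listed at 0 in ZT20 replicates 3 and 4. The female-specific Xist reached 1.08 to 2.30 TPM in replicates 2 to 4 of ZT20 and at most 0.00466 TPM elsewhere. ZT20 replicate 2 thus held both Xist and Y-linked transcripts, so 3 of the 4 ZT20 libraries were at odds with the male label. Calls are therefore also given without ZT20 replicates 3 and 4, and once without replicates 2 to 4. Library names are numbered at ZT20 and lettered at ZT8, so whatever batch the names may stand for cannot be told apart from the group.

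By mean level at ZT20, Igf1r was highest at 18.1 TPM, followed by Irs2 (12.4 TPM), Igfbp3 (11.9 TPM) and Foxo3 (9.44 TPM). Igf1 (5.73 TPM), Igfbp5 (4.64 TPM) and Igf2r (3.78 TPM) formed a middle tier. Insr (1.69 TPM), Irs1 (1.13 TPM) and Foxo1 (0.51 TPM) were lowest. The sample ranges of neighbours in this order overlapped except between Igf1r and Irs2, between Foxo3 and Igf1, between Igf2r and Insr, and between Irs1 and Foxo1. At ZT8 the top 2 genes were also Igf1r and Irs2, and only the step from Igf2r to Foxo1 separated neighbours without overlap. Foxo3 was above Foxo1, Irs2 above Irs1, and Igf1r above Insr in all 7 samples, the last by a ratio of 2.09 in ZT8 replicate 2 and more elsewhere. Igfbp3 was above Igfbp5 in every sample but ZT8 replicate 3.

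**Figure D1:**
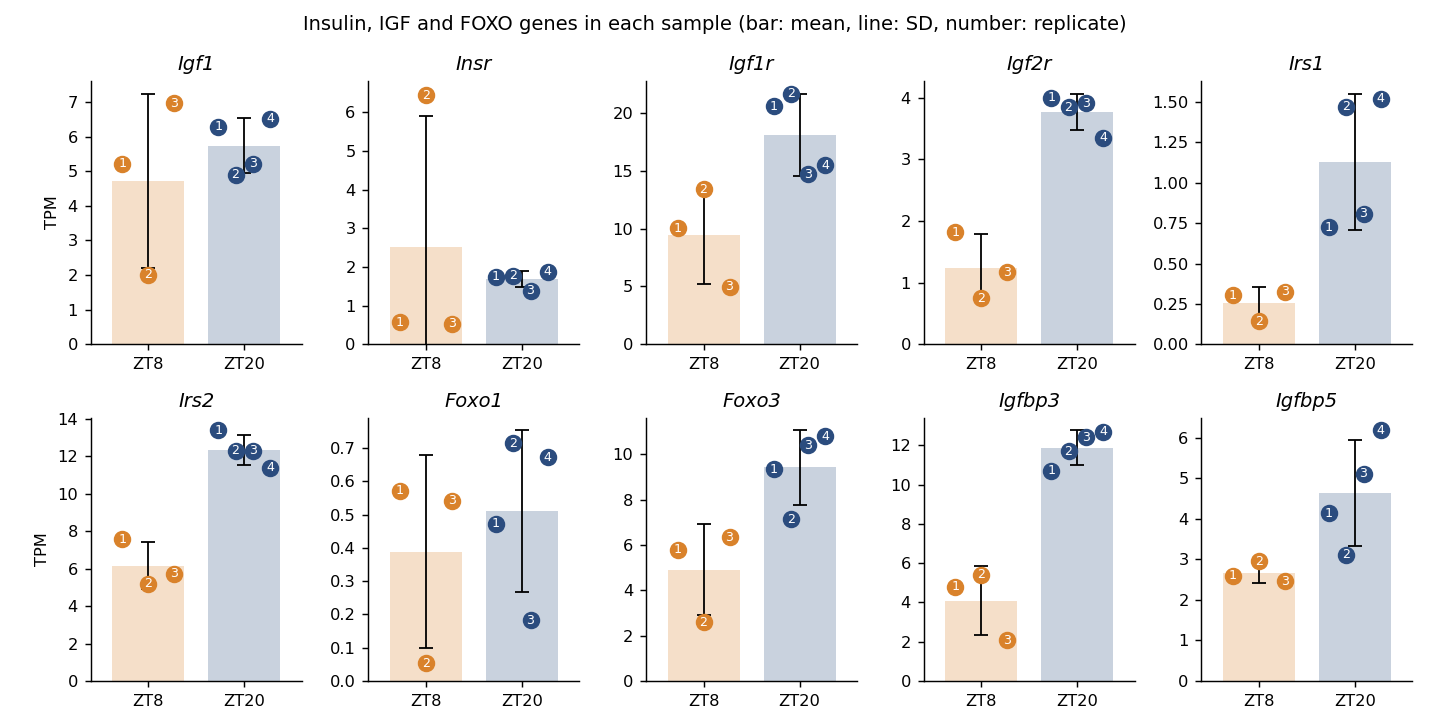
TPM (vertical axis, from 0) of the 10 genes at ZT8 (3 samples) and ZT20 (4 samples); bars are means, lines are 1 SD (cut off at 0 for Insr) and each numbered point is a replicate. In 7 of the 10 panels, including that of the untested Irs1, all ZT20 points lie above all ZT8 points, as for 24.5% of all tested genes. In the Insr panel ZT8 replicate 2 stands at 6.44 TPM.

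Differences were tested by limma on log2(TPM + 1) across the 14800 genes whose mean reached 1 TPM, as ZT20 minus ZT8, with Benjamini-Hochberg adjustment over all of them. Of the 10 genes 8 were tested, and each of these had a mean above 1 TPM in both groups. Irs1 and Foxo1 fell under the filter. The transcripts of 3 of the 8 were higher at ZT20 at an adjusted p under 0.05: Igfbp3, Irs2 and Igf2r. Of all tested genes 12.8% were called higher and 3.61% lower. Median-ratio scaling called 7.35% higher and 8.47% lower with the same count of 3 members, and quantile normalization 6.91% and 5.50% with 2 members, so the balance of directions over all genes depended on the scaling. These scalings moved the median difference of all tested genes from 0.23 to 0.019 and 0.0046, and that of the 8 members from 0.89 to 0.67 and 0.56. No member was lower, and all 8 differences were positive in sign (6 with an unadjusted p under 0.05). Of all tested genes 66.4% had a positive difference, and 34.6% had an unadjusted p under 0.05 in either direction. The groups did not overlap in 6 of the 8, with ZT20 above, which held for 24.5% of all tested genes (8.72% had ZT20 below). As deposited, the median log2 difference of the 8 was 0.89, against 0.23 over all tested genes. Without ZT20 replicates 3 and 4, limma called 0 of the 8 and 0 of the 14800 genes (4 of the 8 and 2425 genes at an unadjusted p under 0.05). Without ZT20 replicates 2 to 4 the single ZT20 library left was assumed to vary like the others, all 8 differences were positive, and limma called 0 of the 8 and 0 of the 14800 (0 and 1133 at an unadjusted p under 0.05). In that fit Igfbp3 differed by 1.27, Igf2r by 1.18 and Irs2 by 1.02. Without ZT8 replicate 2 it called 5 of the 8 higher, and then 16.0% of all tested genes were called higher and 4.60% lower.

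Igf1, which encodes the growth factor IGF-1, measured 6.29, 4.90, 5.22 and 6.52 TPM at ZT20 (replicates 1 to 4, the order used throughout) and 5.22, 2.005 and 6.96 TPM at ZT8 (replicates 1 to 3). The groups overlapped, with the lowest value in ZT8 replicate 2 and the highest in ZT8 replicate 3. The log2 difference was 0.34 with a 95% confidence interval from −0.42 to 1.10 (limma adjusted p = 0.495), and without ZT8 replicate 2 it was −0.072. The other ligand genes lay lower. Igf2, the gene of the second IGF, averaged 0.652 ± 0.483 TPM in the 4 ZT20 samples (SD) and 0.322 ± 0.159 TPM in the 3 ZT8 samples, with overlap. Of the insulin genes, Ins1 was listed at 0 in every sample, and Ins2 was listed at 0 in 3 samples and at 0.287 to 0.839 TPM in the other 4, which came from both groups.

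Insr, the insulin receptor gene, was at 1.74, 1.77, 1.38 and 1.87 TPM at ZT20 and at 0.574, 6.44 and 0.531 TPM at ZT8. ZT8 replicate 2 was thus the highest of all samples, while the other ZT8 samples were the lowest. The log2 difference was 0.036 (95% confidence interval −1.17 to 1.25, limma adjusted p = 0.968). Without ZT8 replicate 2 it was 0.79 ± 0.20 (standard error, limma adjusted p = 0.0335), and without ZT8 replicate 1 or 3 it was −0.33 or −0.35. The comparison of Insr therefore rested on a single library, which also had the fewest genes above 0 TPM and the lowest sum of neuron markers. Its 5 erythroid markers summed to 9534 TPM, against 1603 and 951 TPM in the other ZT8 samples and 2369 to 6679 TPM at ZT20, and their part in the Insr values was not tested.

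Igf1r, the gene of the receptor that carries most IGF-1 signalling, was at 20.6, 21.7, 14.7 and 15.5 TPM at ZT20 and at 10.02, 13.4 and 4.99 TPM at ZT8. The groups did not overlap, by a small margin between ZT20 replicate 3 and ZT8 replicate 2. Means were 18.1 ± 3.54 TPM over the 4 ZT20 samples (SD) and 9.49 ± 4.25 TPM over the 3 ZT8 samples, and the log2 difference of 0.94 (standard error 0.30, 95% confidence interval 0.24 to 1.63) did not pass (limma adjusted p = 0.0666). Without ZT8 replicate 2 it passed, at 1.21 (limma adjusted p = 0.0246), and without ZT8 replicate 3 the difference fell to 0.58 (limma adjusted p = 0.133).

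Igf2r encodes the receptor that takes up IGF-2 and sorts lysosomal enzymes rather than signalling as a kinase; the antisense gene Airn overlaps it, and whether reads were told apart by strand is not stated. It was at 4.003, 3.85, 3.91 and 3.35 TPM at ZT20 and at 1.82, 0.743 and 1.17 TPM at ZT8. The lowest ZT20 sample was well above the highest ZT8 sample. Its mean was 3.04 times higher at ZT20 (mean ± SD of 3.78 ± 0.294 TPM over 4 samples against 1.24 ± 0.542 TPM over 3). The log2 difference was 1.12 ± 0.25 (standard error, limma adjusted p = 0.0208). The difference was as large without ZT20 replicates 3 and 4, at 1.16, though it then did not pass (limma adjusted p = 0.215). Leaving out ZT20 replicate 1, 3 or 4 alone ended the call (limma adjusted p = 0.0631, 0.0728 and 0.0589).

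Irs2, which encodes the substrate that links both receptors to PI3 kinase, was at 13.4, 12.3, 12.3 and 11.4 TPM at ZT20 and at 7.57, 5.20 and 5.73 TPM at ZT8. The ZT20 samples were close together and all above ZT8. The mean was 2.01 times higher at ZT20 (mean ± SD of 12.4 ± 0.813 TPM over 4 samples against 6.17 ± 1.24 TPM over 3). The log2 difference was 0.91 ± 0.18 (standard error, limma adjusted p = 0.0158). Without ZT20 replicates 3 and 4 the difference was 0.97 (limma adjusted p = 0.202), and leaving out ZT20 replicate 1, 3 or 4 alone gave limma adjusted p-values of 0.0539, 0.0628 and 0.0508. Quantile normalization left 0.58 (limma adjusted p = 0.0628).

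Irs1, the sister substrate gene, was at 0.726, 1.47, 0.808 and 1.52 TPM at ZT20 and at 0.304, 0.142 and 0.325 TPM at ZT8. Even the highest ZT8 sample lay below the lowest ZT20 sample, and the mean was 4.40 times higher at ZT20. As a single value Irs1 had a two-sided exact permutation p = 0.0286, the smallest p this design allows, which follows from the lack of overlap and adds nothing to it. Of the tested genes 24.5% had all ZT20 samples above and 8.72% all below. In the fit of all 31897 genes above 0 TPM, where 3.07% of genes were called higher, 0.627% lower and 2 of the 10 members (Irs2 and Igfbp3) higher, its log2 difference of 0.74 had a limma adjusted p of 0.102. On the log2(TPM + 1) scale the change of a gene this low is understated. Its longest transcript has 9144 nt, and after correction for transcript length and GC content the log2 difference was 0.11.

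The promoters of both substrate genes and of Igf2r are shown because these are the 3 member promoters with an E-box, CACGTG, the palindromic element bound by CLOCK and BMAL1. The sequences are 60-base stretches upstream of the transcription start from RefSeq on GRCm38.p6, all on the minus strand of the genome and written 5′ to 3′ in the direction of the gene. Capitals mark CACGTG and the insulin response element core CAAAACA, here found as TGTTTTG. In Irs1 the E-box and the core overlap by 2 bases.
Irs1, chr1:82291520-82291579: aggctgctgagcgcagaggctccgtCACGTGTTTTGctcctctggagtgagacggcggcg
Irs2, chr8:11008937-11008996: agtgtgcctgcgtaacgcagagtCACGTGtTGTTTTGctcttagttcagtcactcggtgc
Igf2r, chr17:12769707-12769766: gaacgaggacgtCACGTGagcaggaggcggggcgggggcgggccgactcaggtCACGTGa

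The E-box begins 115 bases before the start in Irs1, 44 in Irs2, and 48 and 7 in Igf2r. The insulin response element core follows it at 111 bases in Irs1, where a second copy begins at 32 bases, and at 37 bases in Irs2. Promoters of 9 of the 10 genes were matched (all but Insr), and the 250 bases before the start were searched on both strands. The E-box was found in 3 of the 9 and in 6.02% of all 32851 promoters in the table, and CAAAACA in 2 of the 9 (5.56% of all). The FOXO site GTAAACA (3.17% of all) and the D-box TTATGTAA (0.819% of all) were found in 0 of the 9. A match describes these letters in this window and is not evidence of binding.

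Foxo3, the gene of the more abundant FOXO factor here, was at 9.35, 7.14, 10.4 and 10.8 TPM at ZT20 and at 5.78, 2.60 and 6.34 TPM at ZT8. The groups did not overlap, but replicate 2 was the lowest sample in each. The log2 difference was 0.87 (standard error 0.29, 95% confidence interval 0.22 to 1.53) and did not pass (limma adjusted p = 0.0693). Without ZT8 replicate 2 it was 0.55 (limma adjusted p = 0.0868). Foxo1, its relative and the main FOXO of insulin action in liver, was at 0.473, 0.714, 0.182 and 0.673 TPM at ZT20 and at 0.572, 0.0529 and 0.542 TPM at ZT8. Its groups overlapped, with a two-sided exact permutation p = 0.514 for a log2 difference of 0.13.

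Igfbp3, which encodes the main carrier of IGFs in serum and a secreted binder that can withhold them from receptors, showed the largest log2 difference of the 8 tested genes. It was at 10.7, 11.7, 12.4 and 12.7 TPM at ZT20 and at 4.79, 5.40 and 2.08 TPM at ZT8. The ZT20 samples were tightly grouped, and the lowest of them was far above the highest ZT8 sample. The mean was 2.90 times higher at ZT20 (mean ± SD of 11.9 ± 0.899 TPM over 4 samples against 4.09 ± 1.77 TPM over 3). The log2 difference was 1.41 ± 0.27 (standard error, limma adjusted p = 0.0137). Without ZT20 replicates 3 and 4 the difference was 1.33 (limma adjusted p = 0.208). Leaving out ZT20 replicate 3 or 4 alone gave limma adjusted p-values of 0.0554 and 0.0516. The summed level of 9 endothelial and mural cell markers was 81.9 to 112 TPM at ZT20 and 49.2 to 85.5 TPM at ZT8, overlapping, and its part in the Igfbp3 difference was not tested. Most of that sum was a single gene, Rgs5, at 74.2 to 104 TPM at ZT20 and 42.6 to 81.04 TPM at ZT8.

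Igfbp5, a binding protein gene expressed by many connective tissue and muscle cells, was at 4.14, 3.12, 5.11 and 6.19 TPM at ZT20 and at 2.60, 2.95 and 2.46 TPM at ZT8. The groups did not overlap, although ZT20 replicate 2 came close to ZT8 replicate 2. The log2 difference of 0.59 (standard error 0.25, 95% confidence interval 0.024 to 1.16) did not pass (limma adjusted p = 0.131). The 7 fibroblast and meningeal markers summed to 84.8 to 122 TPM at ZT20 and 92.4 to 212 TPM at ZT8.

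Neuron and glial markers moved with these results. With the mean log2 level of neuron markers minus that of glial markers as a covariate, the log2 difference of Igfbp3 was 2.22 (standard error 0.50), that of Igf2r 0.96 and that of Irs2 0.81. Their limma adjusted p-values were 0.281, 0.610 and 0.564, and limma with this covariate called 0 of 14800 genes (1525 at an unadjusted p under 0.05). The covariate itself was 3.77 to 4.21 at ZT20 and 3.37 to 3.65 at ZT8, without overlap, so it is largely shared with the group, and the loss of calls cannot tell the marker balance apart from the time of day.

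Transcript length also moved with the differences. Among tested genes placed in 10 groups by the length of their longest GENCODE M21 transcript, the longest group had a median difference of 0.69 and 36.5% of its genes called higher, and the shortest had −0.028 and 6.37%. Of the 8 tested genes 5 belong to the longest group (Insr, Igf1r, Igf2r, Igf1 and Foxo3) and 2 to the next (Irs2 and Igfbp5, median of the group 0.56). Igfbp3, with a longest transcript of 2421 nt, belongs to a group with a median of 0.079 in which 4.81% of genes were called higher. Once the trends with length and GC content had been removed from every sample, Igfbp3 differed by 1.29 ± 0.30 (standard error, limma adjusted p = 0.0360), while 3.66% of all genes were called higher and 5.13% lower. Igf2r then differed by 0.48 (95% confidence interval −0.051 to 1.02, limma adjusted p = 0.224) and Irs2 by 0.27 (95% confidence interval −0.13 to 0.66, limma adjusted p = 0.360), and neither passed. Igf1r was at 0.27, Foxo3 at 0.24 and Igfbp5 at 0.045, and Insr (−0.61) and Igf1 (−0.22) turned negative. The median of the 8 was 0.25, against −0.0034 for all tested genes. Igfbp3 thus passed both with and without the correction, as no other of the 8 did. The corrected call of Igfbp3 ended without ZT20 replicates 3 and 4 (1.25, limma adjusted p = 0.308) and with a replicate block (1.27, limma adjusted p = 0.0869).

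**Figure D2:**
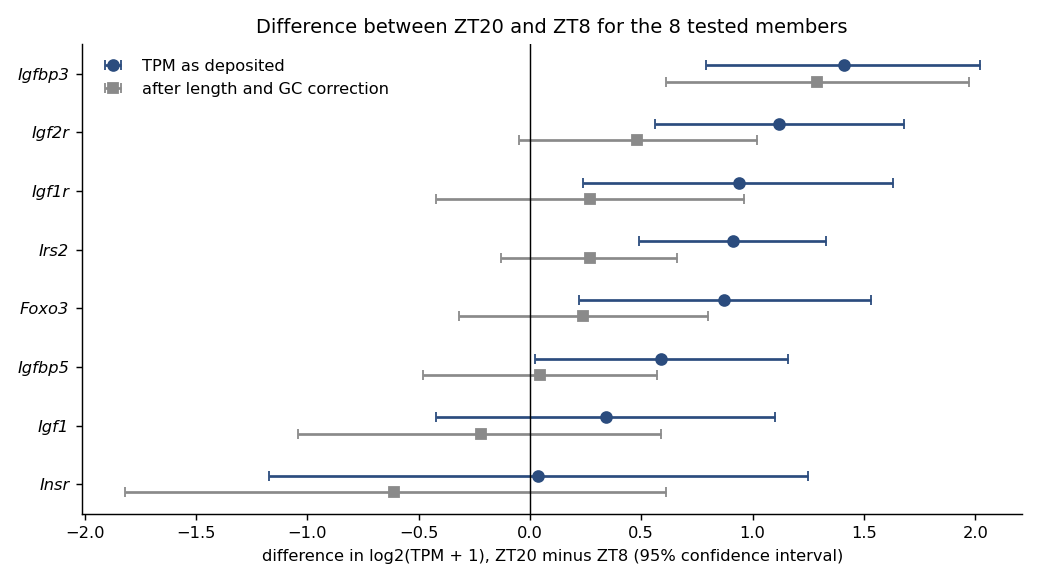
Difference in log2(TPM + 1), ZT20 minus ZT8, for the 8 tested genes (horizontal axis, with 95% confidence intervals), from TPM as deposited (circles) and after correction for length and GC content (squares). The Igfbp3 estimate moves from 1.41 to 1.29, while those of Igf2r and Irs2 move from 1.12 to 0.48 and from 0.91 to 0.27.

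**Figure D3:**
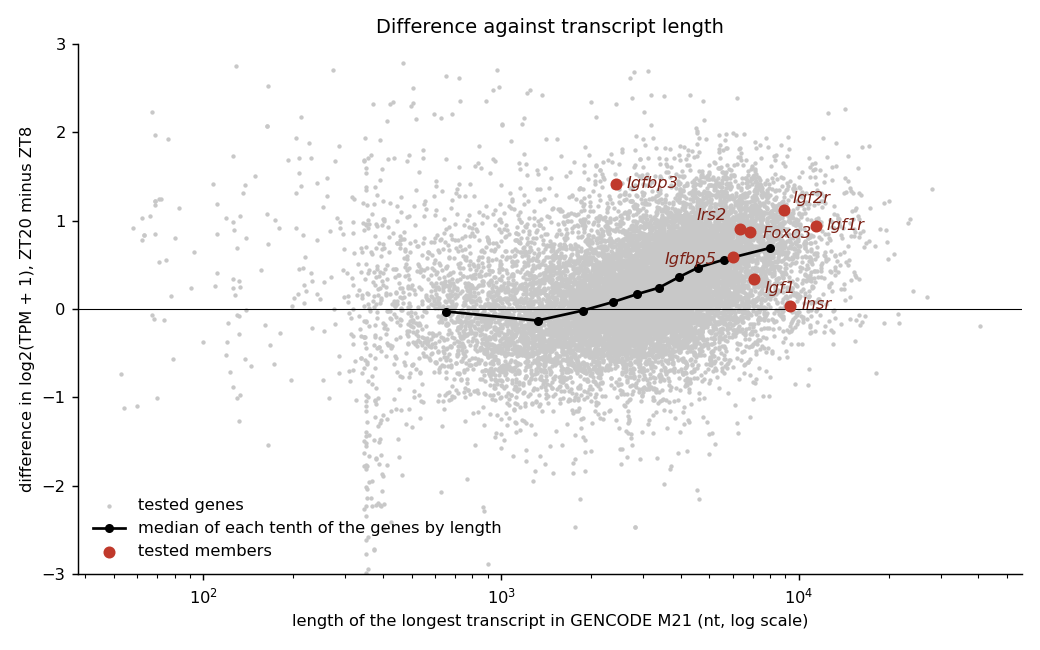
Difference in log2(TPM + 1), ZT20 minus ZT8, against the length of the longest transcript (log scale) for all tested genes of known length (grey, 40 genes beyond ±3 not shown), with the medians of the 10 length groups (black) and the 8 tested genes (red). Igfbp3 stands apart at 2421 nt, well above the black line, the other red points lie among the long genes, and Igf1 and Insr lie below the line's end at 0.69.

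Other genes of the pathway were read from lists made by role in the pathway. Of 90 listed genes 71 were tested, and 12 were called higher and 1 lower at ZT20, with a median log2 difference of 0.26. Over all tested genes 12.8% were called higher and 3.61% lower, with a median of 0.23, so the lists as a whole were close to the background. Median-ratio scaling called 7 of the 71 higher and 3 lower, and quantile normalization 5 and 2. After the length and GC correction limma called 0 of the 71 higher and 4 lower (7 and 15 at an unadjusted p under 0.05). Over all genes 3.66% were then called higher and 5.13% lower, with 3993 of 14745 at an unadjusted p under 0.05.

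The PI3 kinase and AKT list, the relay just below the IRS proteins, had a positive difference for 11 of 11 genes, a median of 0.62, and 4 genes called higher (12.8% of all tested genes were, and 66.4% were positive). Median-ratio scaling called 3 of the 11 higher and quantile normalization 2, where Pik3ca did not pass (limma adjusted p = 0.0577). Pik3r1, the gene of the regulatory subunit that binds IRS proteins, averaged 48.4 ± 3.41 TPM in the 4 ZT20 samples (SD) against 23.9 ± 5.21 TPM in the 3 ZT8 samples and differed by 1.00 on the log2 scale (limma adjusted p = 0.00829). Pik3ca, the catalytic subunit gene, differed by 0.90 (limma adjusted p = 0.0129). Pik3r3, the gene of another regulatory subunit, averaged 35.5 ± 7.27 TPM against 18.3 ± 1.36 TPM and also differed by 0.90 (limma adjusted p = 0.0160). Leaving out ZT20 replicate 3 alone ended the call of Pik3ca (limma adjusted p = 0.0586), and leaving out replicate 3 or 4 that of Pik3r3 (limma adjusted p = 0.0602 and 0.0572). The most abundant gene of the list, Pdpk1, whose kinase activates AKT, differed by 0.62 and did not pass (limma adjusted p = 0.116). After the length and GC correction 7 of the 11 were positive, the median was 0.29, and limma called 0 of them (2 higher and 1 lower at an unadjusted p under 0.05). Without ZT20 replicates 3 and 4 limma called 0 of the 11 (4 at an unadjusted p under 0.05), with a median of 0.59.

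Among receptor adaptors and brakes 4 of 14 tested genes were called higher (12.8% of all tested genes were), and after the length and GC correction 0 were higher (3 at an unadjusted p under 0.05) and 1 lower by limma. Sos1 and Sos2, which encode exchange factors that pass receptor signals to RAS, differed by 1.48 and 1.21 (limma adjusted p = 0.00735 and 0.0140), and Ptprf, a receptor phosphatase gene, by 1.17 (limma adjusted p = 0.00583). Leaving out ZT20 replicate 3 or 4 alone ended the call of Sos2 (limma adjusted p = 0.0523 and 0.0542). Grb2, the most abundant adaptor gene, was at 81.8 to 91.6 TPM at ZT20 and 97.2 to 142 TPM at ZT8, a difference of −0.34 that did not pass (limma adjusted p = 0.158). Without ZT8 replicate 2 the Grb2 difference was −0.16 (limma adjusted p = 0.296). Without ZT20 replicates 3 and 4 Sos1, Sos2 and Ptprf differed by 1.49, 1.20 and 1.12, and none passed (limma adjusted p = 0.171, 0.202 and 0.154). In the mTOR and GSK3 branch 2 of 17 were called higher and 1 lower, near the shares over all tested genes. Under median-ratio scaling limma called 0 higher (3 at an unadjusted p under 0.05) and 2 lower, and under quantile normalization 0 higher and 0 lower (3 and 2 at an unadjusted p under 0.05). Rictor, a subunit gene of mTOR complex 2, differed by 1.07 and Tsc2, an mTOR brake gene, by 0.80 (limma adjusted p = 0.0339 and 0.0290). Rps6, the gene of a ribosomal protein that is a classical readout of mTOR activity at the protein level, differed by −0.53 (limma adjusted p = 0.0408). Rictor averaged 0.897 TPM at ZT8 and 2.88 TPM at ZT20, so only its ZT20 values carried it past the filter of 1 TPM. Without the filter Rictor, Tsc2 and Rps6 did not pass (limma adjusted p = 0.105, 0.065 and 0.0982). Each of these 3 calls ended when any 1 ZT20 library was left out, with limma adjusted p-values of 0.0716 to 0.1 for Rictor, 0.0635 to 0.0951 for Tsc2 and 0.0661 to 0.118 for Rps6. Leaving out 1 ZT8 library also ended the call of Rictor (replicate 1, limma adjusted p = 0.0636), Tsc2 (replicates 1 and 3, 0.0688 and 0.075) and Rps6 (replicates 1 and 2, 0.0564 and 0.0531). Without ZT20 replicates 3 and 4 Rictor, Tsc2 and Rps6 differed by 1.07, 0.78 and −0.42, and none passed (limma adjusted p = 0.266, 0.266 and 0.344). Rheb, the gene of the small GTPase that switches on mTOR and the most abundant of the list, differed by −0.22 (limma adjusted p = 0.235). Median-ratio scaling took Rheb to −0.47, where it passed (limma adjusted p = 0.0489), and quantile normalization to −0.12 (limma adjusted p = 0.579). Without ZT8 replicate 3 it was at −0.1 (limma adjusted p = 0.522).

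Of 6 tested FOXO partners 2 were called higher (12.8% of all tested genes were): Crebbp, a coactivator gene, by 1.19 and Usp7, a FOXO deubiquitinase gene, by 0.91 (limma adjusted p = 0.0158 and 0.0153). Both calls ended without ZT20 replicate 3 or 4 (limma adjusted p = 0.0541 to 0.058), and without both replicates the differences were 1.16 and 0.96 (limma adjusted p = 0.212 and 0.196). Median-ratio scaling called 1 of the 6, and limma called 0 with quantile normalization or with length and GC content corrected for (3 and 1 higher at an unadjusted p under 0.05). The most abundant partner, the 14-3-3 gene Ywhaz, differed by 0.31 (limma adjusted p = 0.175), and by 0.15 without ZT8 replicate 2 (limma adjusted p = 0.377). Of 22 textbook FOXO target genes 17 were tested, and limma called 0 (2 higher and 1 lower at an unadjusted p under 0.05). Their median difference was 0.00034, below the 0.23 of all tested genes, with 9 of 17 positive. Under median-ratio or quantile scaling limma called 1 target lower and 0 higher (5 and 4 lower, and 1 higher in each, at an unadjusted p under 0.05), and likewise 1 and 0 once length and GC content were corrected for. With that correction 6 were lower and 0 higher at an unadjusted p under 0.05, with a median of −0.29. Over all genes 3993 of 14745 were then at an unadjusted p under 0.05 in either direction, with a median of −0.0034. The most abundant target, the autophagy gene Map1lc3b, differed by −0.32 (limma adjusted p = 0.153). Of the other binding proteins and their proteases limma called 0 of 5 (0 higher and 1 lower at an unadjusted p under 0.05), and under quantile normalization 1 lower, Igfbp6. Igfbp4, the most abundant of these, was at 13.6 to 22.3 TPM at ZT20 and 14.1 to 24.7 TPM at ZT8, a difference of −0.086 (limma adjusted p = 0.834). Among related receptors Lrp1, an endocytic receptor gene, was the single gene tested and differed by 0.13 (limma adjusted p = 0.790).

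**Figure D4:**
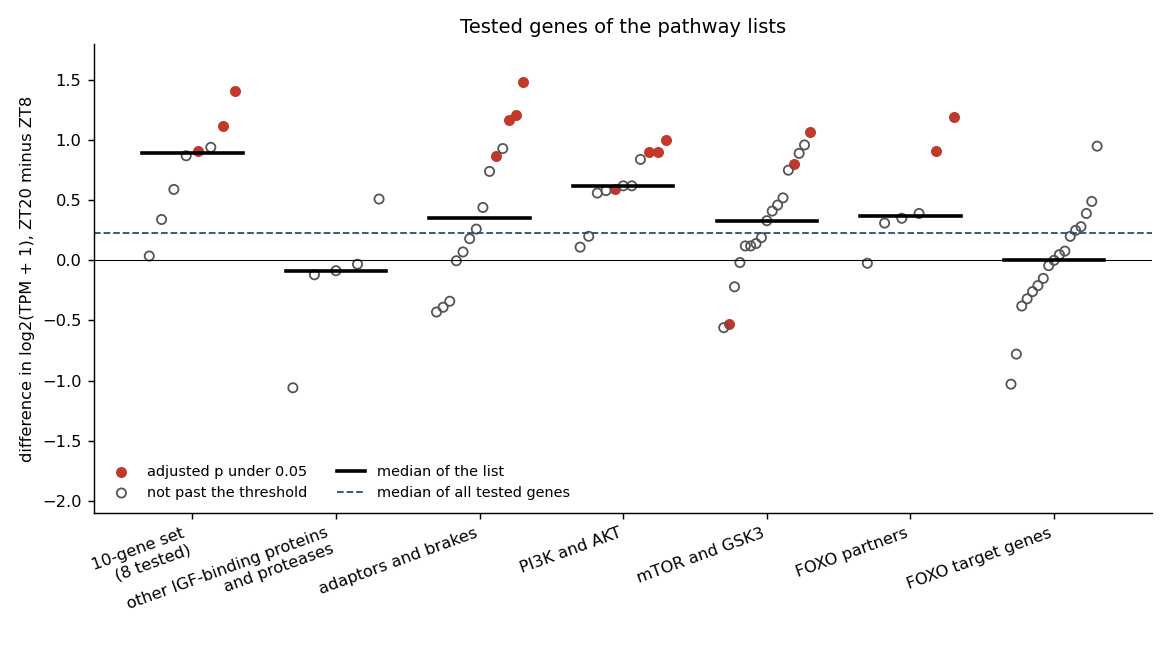
Difference in log2(TPM + 1), ZT20 minus ZT8 (vertical axis), for tested genes of the 10-gene set and of 6 pathway lists; filled points have an adjusted p under 0.05, bars are list medians and the dashed line is the median of all tested genes, 0.23. The PI3 kinase and AKT genes are all above 0, while FOXO target genes spread around 0.

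Profiles over the 7 samples were compared with those of all genes at a mean of 5 TPM or more by Pearson's r of log2(TPM + 1), as a description. For Igf2r the most similar genes were Usp25 (r = 0.997) and Irs2 (r = 0.995), and for Irs2 they were Usp25 (r = 0.995) and Pank4 (r = 0.993). For Igfbp3 they were Agk (r = 0.996) and Tbk1 (r = 0.992), for Foxo3 Lin7a and Cabp7 (both r = 0.997), and for Igfbp5 Ap3s2 (r = 0.995) and Smarcd1 (r = 0.989). For Igf1r they were Kif22 and Nudcd3 (both r = 0.981), for Igf1 Zfp637 (r = 0.995) and Limch1 (r = 0.993), and for Insr A030001D20Rik (r = 0.981) and Senp7 (r = 0.975). The 7 samples share libraries and the group difference, and 960 of 10268 genes had an r above 0.9 with Igf2r and 68 of 10268 with Insr.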

How the data were processed

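RNA was sequenced from 7 samples (4 ZT20, 3 ZT8), grouped by their titles. A low-input library kit was used on total RNA, per the labels' protocols. The authors deposited TPM values, 1 column per sample, and 0 per-sample columns were left unused. The submitters' processing notes name FastQC 0.11.9, Trim Galore 0.6.6, Salmon 1.6.0, DESeq2 1.34.0 and GRCm39, without their roles, so gene coordinates from the older reference build are not given, apart from those of the printed promoter sequences. The annotation release and any scaling between samples are not given in the sources used here. TPM holds no depth.

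Genes whose mean reached 1 TPM were fitted on log2(TPM + 1) with limma 3.58.1 (R 4.3.3, intensity trend, two-sided, Benjamini-Hochberg adjustment, threshold 0.05). On simulated data for this comparison (14800 genes, 200 changed by 1.5 on the log2 scale) 66.0% of the changed genes were recovered, false calls made up 3.65% of all calls, and 0 genes were called when none was changed. The simulated noise was independent between genes, without shared effects such as the trend with length. The share of false calls therefore does not carry over to these data. Length and GC content came from GENCODE M21 for 99.6% of tested genes (loess, span 0.3). Insr, Igf2r, Igf1, Irs1, Irs2 and Foxo1 overlap a gene on the opposite strand there, and use of strand is not stated, so their values are less certain. Foxo1 also overlaps 1 gene on the same strand.

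Members, lists and tests were chosen with earlier results of these data known. Named were all 10 members, the most abundant and up to 3 most changed called genes of each pathway list, Igf2, and the 2 genes most similar in profile to each tested member. Ins1, Ins2, Irs4 and single marker genes were named outside this rule. Of the genes drawn up for the pathway lists, 2 are not reported here and enter no list count. Alternatives were other pseudocounts, filters, scalings, covariates, weights and left-out libraries. Figures used matplotlib 3.10.9.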

Additional observations from a re-analysis of the deposited data

How the results depend on the processing

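Fits of the length and GC correction without ZT8 replicate 2, or without ZT20 replicates 3 and 4, and a fit without ZT20 replicates 2 to 4, were added after seeing the data. For each change the cause was not tested. Of the genes tested, the numbers higher and lower at ZT20 were 978 and 200 without a filter, 1088 and 1254 under median-ratio scaling, 1023 and 814 under quantile normalization, and 2982 and 917 with array weights. They were 3098 and 981 at an adjusted p of 0.10, 539 and 757 once length and GC content were corrected for, 901 and 949 likewise without ZT8 replicate 2, and 1 and 1 likewise without ZT20 replicates 3 and 4. Without the intensity trend 332 were lower. Leaving out each replicate gave 543 to 2374 higher and 81 to 681 lower. With the marker covariate, without ZT20 replicates 3 and 4, and without ZT20 replicates 2 to 4, limma called 0 in either direction (1525, 2425 and 1133 at an unadjusted p under 0.05).

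Of the 8 tested members, 3 were called higher as reported, 6 with array weights, 5 at an adjusted p of 0.10, 1 after the length and GC correction (also without ZT8 replicate 2, but 0 without ZT20 replicates 3 and 4, with 1 at an unadjusted p under 0.05), and 0 with the marker covariate (1 at an unadjusted p under 0.05), without ZT20 replicates 3 and 4 (4 likewise), and without ZT20 replicates 2 to 4 (0 likewise). Leaving out each replicate gave 0 to 5, with 5 without ZT8 replicate 2. Members lower were 0 under every alternative run with limma.

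Replicate numbers occur in both groups. Deviations of same-numbered samples correlated at −0.0141, 0.153 and 0.0830, and not every sample correlated best with its own number, so the samples share only a number. With a replicate block 826 genes were higher and 273 lower, and limma called 0 members (5 at an unadjusted p under 0.05). With the block and the length and GC correction these were 250, 343 and 0 (1 at an unadjusted p under 0.05).

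The signs of some differences turned. Insr was at −0.12 under median-ratio scaling, −0.26 under quantile normalization, −0.61 after the length and GC correction, −0.62 with the block as well, −0.52 after the correction without ZT20 replicates 3 and 4, and −0.33 or −0.35 without ZT8 replicate 1 or 3 (range −0.35 to 0.79 over left-out replicates). Igf1 was at −0.00034 under quantile normalization, −0.22 after the correction, −0.25 with the block as well, −0.20 with the marker covariate, −0.072 without ZT8 replicate 2 (up to 0.63 over left-out replicates), and −0.67 and −0.20 after the correction without ZT8 replicate 2 and without ZT20 replicates 3 and 4. For Foxo1 the values were −0.50 after the correction, −0.53 with the block as well, −0.13 with array weights, −0.059 without ZT8 replicate 2 (up to 0.24), and −0.68 and −0.36 in the 2 added fits with the correction. Foxo3 reached −0.022 after the correction without ZT8 replicate 2, and Igfbp5 −0.055 with block and correction and −0.14 after the correction without ZT20 replicates 3 and 4. Igf2 was at −0.23 after the correction, −0.057 with the block as well, −0.61 with the marker covariate and −0.20 after the correction without ZT8 replicate 2. Lrp1 was at −0.092 under median-ratio scaling, −0.20 under quantile normalization, −0.65 after the correction, −0.60 with the block as well, −0.25 without ZT8 replicate 3 (up to 0.49), and −0.25 and −0.57 in the 2 added fits with the correction. Igfbp4 was at 0.072, 0.043 and 0.040 without ZT20 replicate 2, ZT8 replicate 1 and ZT8 replicate 3 (down to −0.34), and at 0.12 without ZT20 replicates 2 to 4. Pdpk1 was at −0.11 with block and correction, and −0.11 and −0.28 in the 2 added fits with the correction. The differences of Igfbp3, Irs2, Igf2r and Igf1r were positive under every alternative run. That of Irs1, 0.74 as reported, was also positive but near 0 after the correction: 0.11, 0.049 with the block as well, and 0.068 and 0.15 in the 2 added fits with the correction. Irs1, Foxo1 and Igf2 averaged under 1 TPM, and the correction was fitted on genes above that. Their corrected values therefore cannot be read as a turn or loss of the difference.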

Other observations

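Ratios between relatives within a sample do not depend on scaling between samples. The Igfbp3 to Igfbp5 ratio was 2.58, 3.75, 2.42 and 2.06 in the ZT20 samples and 1.84, 1.83 and 0.847 in the ZT8 samples, in replicate order, so all ZT20 samples were above all ZT8 samples. The Irs2 to Irs1 ratio was 7.49 to 18.5 at ZT20 and 17.7 to 36.5 at ZT8, overlapping in ZT20 replicate 1 and ZT8 replicate 3. The Igf2r to Igf1r ratio was 0.178 to 0.267 at ZT20 and 0.182, 0.0552 and 0.235 in the ZT8 samples, where replicate 2 was far below the others. The Igf1r to Insr ratio was 8.28 to 12.3 at ZT20 and 17.5, 2.09 and 9.41 at ZT8.

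Some listed genes outside the naming rule were singled out after their values were seen. Igfbp6, the gene of a binding protein that prefers IGF-2, averaged 8.33 ± 1.8 TPM in the 4 ZT20 samples (SD) and 20.2 ± 12.3 TPM in the 3 ZT8 samples, without overlap, a log2 difference of −1.06 opposite in sign to Igfbp3 (limma adjusted p = 0.0651). Under quantile normalization it passed, at −1.34 (limma adjusted p = 0.0487). Without ZT8 replicate 2, its highest sample at 34.4 TPM, the Igfbp6 difference was −0.62 (limma adjusted p = 0.0717). Without ZT8 replicate 1 it was −1.33 (limma adjusted p = 0.0477). After the length and GC correction the 4 of 71 pathway genes called lower, near the 5.13% of all genes, were Mtor (−1.25), Bcl6 (−1.35), Enpp1 (−1.02) and Rheb (−0.55), with limma adjusted p-values of 0.0298, 0.0478, 0.0289 and 0.0374. None of the 4 passed with the correction and a replicate block (limma adjusted p = 0.0603, 0.111, 0.0811 and 0.0821) or without ZT20 replicates 3 and 4 (0.273, 0.320, 0.229 and 0.315), and Rheb did not without ZT8 replicate 2 (0.0553). Uncorrected, Bcl6 differed by −1.03 (limma adjusted p = 0.0783), and by −0.58 without ZT8 replicate 3 (limma adjusted p = 0.154). Enpp1, uncorrected, differed by −0.43 (limma adjusted p = 0.249), and its sign turned with the marker covariate, at 0.5. Mtor, the growth kinase gene, was at 14 to 18.2 TPM at ZT20 and at 22.1, 36.01 and 16.8 TPM at ZT8, overlapping and highest in ZT8 replicate 2, and its difference without the correction, −0.56, did not pass (limma adjusted p = 0.154). Leaving out ZT8 replicate 2 took this uncorrected difference to −0.27 (limma adjusted p = 0.324).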
